A study of Sus scrofa with 5 samples.

Results

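The insulin-like growth factor (IGF) axis of pig backfat was described from 10 genes chosen by name: the ligands IGF1 and IGF2, the receptors IGF1R and IGF2R, and the binding proteins IGFBP2, IGFBP3, IGFBP4, IGFBP5, IGFBP6 and IGFBP7. A gene counted as measured where at least 1 probe set, the group of short probes that stands for a transcript on the array, was annotated with its symbol and no other. This held for 7 of the 10 genes, with 23 probe sets of the 24123 on the array. No probe set was annotated to IGFBP3, IGFBP4 or IGFBP7, which were not measured. The annotation named 6765 genes in all.

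The samples were backfat of 5 females of an Iberian × Landrace backcross to Landrace, fed the same commercial diet, with 1 Affymetrix porcine array per animal. The L group held BC2 and BC3, and the H group BC4, BC5 and BC6. The study had formed both groups from a principal component of carcass traits and intramuscular fatty acid composition, H for more polyunsaturated and L for more saturated and monounsaturated fatty acids. The sample labels name the animals, and their group was taken from the study's list of animals. Each value comes from 1 pig, with 3 animals in H and 2 in L, and p-values measure the spread between these pigs.

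IGF1 and IGF2 are small secreted peptides that promote growth and differentiation, in fat including that of preadipocytes. Both act through IGF1R, a tyrosine kinase that signals through the same adaptors and kinases as the insulin receptor, whereas IGF2R, the mannose 6-phosphate receptor that also sorts lysosomal enzymes, takes up IGF2 for degradation. The binding proteins carry the ligands, prolong their stay in blood and tissue and keep them from the receptor, until proteases cut them. IGFBP6 is known for its preference for IGF2. In RefSeq's gene table of the Sscrofa11.1 assembly, IGFBP2 and IGFBP5 lie next to each other, and IGF2 lies next to INS, the insulin gene. Sequences were not analysed here.

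The values are on the log2 scale, as the authors deposited them after background adjustment, normalization between arrays and summary per probe set. The lowest value, 2.17, was shared by 5576 of 23999 tested probe sets on all 5 arrays (23.2%). Such a value is a lower limit of the scale and no measured level. Array medians were 4.21 to 4.29, and Spearman's rho between arrays was 0.982 to 0.989 across probe sets. All 7 measured fat markers varied, with FABP4, a fatty acid carrier of adipocytes, at 15.36 to 15.49 and LPL, the lipoprotein lipase, at 12.84 to 14.01. ADIPOQ, the adiponectin gene, was at 9.09 in BC5 and 10.52 to 12.20 in the others, and LEP, the leptin gene, was also lowest in BC5, at 4.41. Although the submitters' extraction note names liver, the liver genes TTR, APOA2 and SERPINA1 lay at or just above the floor on every array, at up to 2.23, 2.18 and 2.17, and ALB, the serum albumin, ran from 2.58 to 4.69. Of the 12 listed liver genes 6 varied, and APOA1, an apolipoprotein of liver and gut, was at 11.29 to 12.57. In such bulk tissue, fewer cells of a type and less RNA per cell cannot be told apart.

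Of the 23 probe sets of the IGF axis, 7 lay at the floor in every animal, 2 stayed at a constant of their own, and 5 gave mostly 1 repeated value. The other 9 took at least 4 distinct values over the 5 arrays and are called varying here, and they stood for IGF1, IGF2, IGF1R, IGFBP2, IGFBP5 and IGFBP6. Over the whole array, 14289 probe sets varied in this sense.

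**Figure D1:**
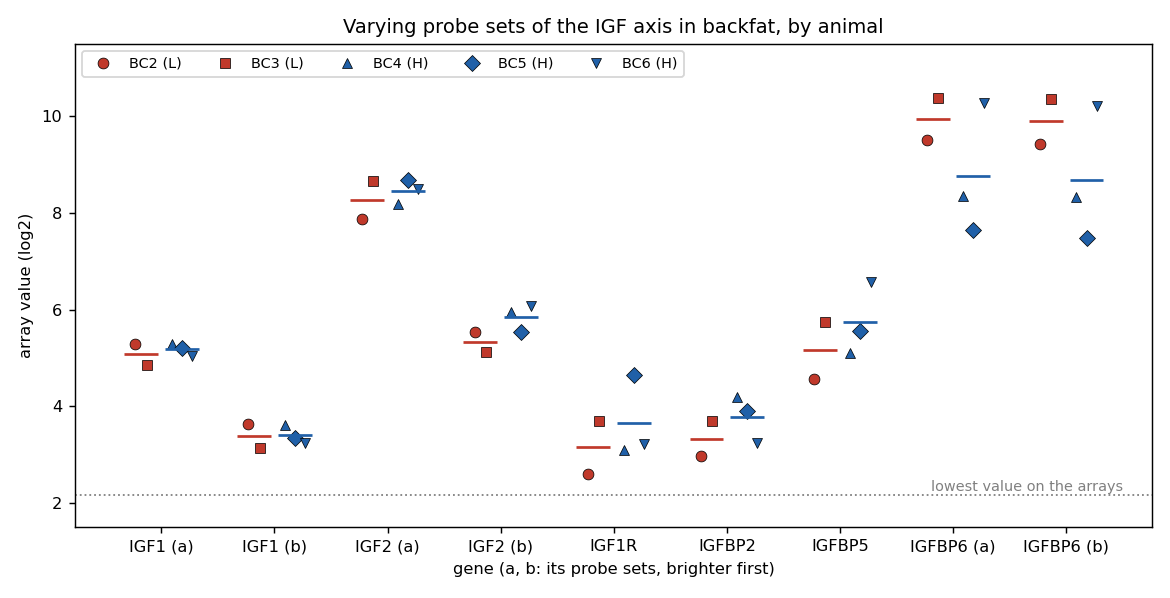
Array values (log2) of the 9 varying probe sets of the IGF axis, 1 point per animal (L in red, H in blue), with a line at each group mean and a dotted line at the lowest value on the arrays. The H and L points share part of their range, except in the fainter IGF2 probe set, where they meet only at 5.54, the value of BC2 and BC5. IGFBP6 spreads most, from 7.65 in BC5 to 10.38 in BC3 for its brighter probe set.

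The groups were compared to see whether the axis differs between pigs with unlike fatty acid composition. A probe set was called where limma gave it p up to 0.01, adjusted p up to 0.1 and at least a 1.2-fold change. None of the 23 probe sets was called, nor was any of the 23999 probe sets on the array (0%). At an unadjusted p under 0.05 there were 762 probe sets on the array (3.18%, with 1.60% higher and 1.58% lower in H) and 0 among the 23. With the brightest probe set of each gene, the mean of H was above that of L for 5 of the 6 varying genes, all but IGFBP6. Over the array, 54.1% of all varying probe sets had a higher and 45.9% a lower mean in H. The median difference of the 6 genes was 0.32, against 0.02 over all varying probe sets. The values of H and L did not overlap for 0 of the 6 genes, and for 20.0% of all varying probe sets. With 1 animal left out, the groups did not overlap for 2 genes without BC2 (41.7% over the array), 5 without BC3 (54.1%), 0 without BC4 (33.7%), 0 without BC5 (30.3%) and 2 without BC6 (36.8%). Without BC2, 2 of the 6 genes had a higher mean in H, IGF1 and IGFBP2.

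Among the ligands, IGF1 had log2 values of 5.29 in BC2, 4.86 in BC3, 5.28 in BC4, 5.20 in BC5 and 5.04 in BC6 in its brightest probe set. The L animals held both the highest and the lowest value, with the H animals between them. H averaged 5.17 ± 0.12 (SD, n = 3) and L averaged 5.07 ± 0.30 (SD, n = 2), a difference of 0.10 and a 95% interval of -0.42 to 0.62 (adjusted p = 1 from limma). Leaving out BC3 turned it to -0.11. A second probe set of IGF1 ran from 3.12 in BC3 to 3.64 in BC2 and ordered the 5 animals as the first did. The third was at the floor on all arrays. The range of the brighter one, 0.43, was above that of 26.3% of varying probe sets.

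IGF2 was represented by 13 probe sets, 6 of them at the floor in every animal and 2 varying. The brightest was at 7.87 in BC2, 8.66 in BC3, 8.19 in BC4, 8.69 in BC5 and 8.50 in BC6. It was lowest in BC2 and nearly equal in BC3 and BC5, animals of different groups. Its difference was 0.19 (standard error 0.33, 95% interval -0.80 to 1.18, adjusted p = 1 from limma), and without BC2 it was -0.20.

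The other varying probe set of IGF2 was at 5.54 in BC2, 5.11 in BC3, 5.95 in BC4, 5.54 in BC5 and 6.07 in BC6. BC2 and BC5 had the same value, and no H animal lay below BC2. The means differed by 0.53 (standard error 0.25, 95% interval -0.22 to 1.27, adjusted p = 1 from limma). The difference stayed between 0.31 and 0.74 whichever animal was left out. The 2 probe sets thus ordered the animals differently, BC3 being the lowest of 5 in the one and next to the highest in the other. Which transcripts of IGF2 each of them reads was not tested, and the level of the gene rests on which is taken. A further IGF2 probe set was at 2.26 on 4 arrays and 2.58 in BC2 alone. It was the only one of the 23 to pass the threshold with an animal left out, at a difference of -0.32 without BC3 (adjusted p = 0.00137 from limma), a comparison of BC2 with 3 equal values near the floor. Over the array, 1.19% of probe sets passed without BC3 and 0.667% without BC2, where 0 of the 23 did.

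**Figure D2:**
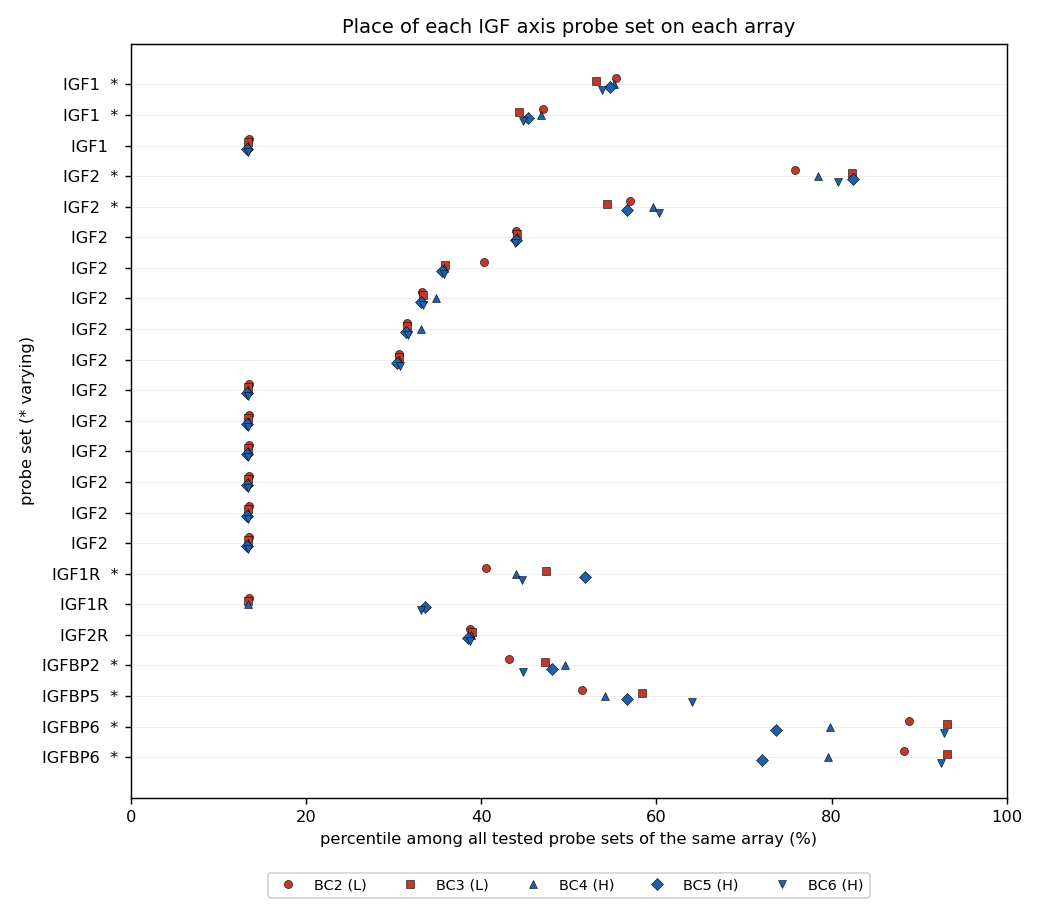
Place of each of the 23 probe sets among all tested probe sets of the same array, as a percentile (%), 1 point per animal (L in red, H in blue), with the varying probe sets marked by an asterisk. Both IGFBP6 probe sets move between the 72.1 and 93.2 percentile from animal to animal, IGF1R between 40.5 and 51.9 in its varying probe set, and the brightest IGF2 probe set between 75.9 and 82.4, places that give no order of levels between genes.

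Of the receptors, IGF2R had 1 probe set, which gave 2.43 on each of the 5 arrays. This constant lies close to the floor, and the arrays hold no information on how IGF2R differed between animals. IGF1R was at 2.59 in BC2, 3.70 in BC3, 3.09 in BC4, 4.65 in BC5 and 3.22 in BC6. BC5 stood highest and BC2 lowest, and the L animal BC3 lay above the H animals BC4 and BC6. H averaged 3.65 ± 0.87 (SD, n = 3) and L averaged 3.14 ± 0.78 (SD, n = 2), with a difference of 0.51 (standard error 0.73, 95% interval -1.67 to 2.69, adjusted p = 1 from limma). It was -0.04 without BC2 and 0.01 without BC5. A second IGF1R probe set lay within 0.04 of the floor in every animal.

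The range of IGF1R over the 5 animals, 2.06, was larger than that of 94.7% of varying probe sets. It starts near the floor of 2.17, with 2.59 in BC2. Skeletal muscle markers were on average also highest in BC5 and next highest in BC3. CKM, the muscle creatine kinase, was at 6.95 in BC5 and 5.04 in BC3 but at 2.43 to 3.28 in the others, and MYH2, a fast myosin heavy chain, was at 7.84, 4.75 and at most 2.71. Of 10 listed muscle markers 6 were measured, all 6 highest in BC5, where 27.6% of all varying probe sets were highest. The mean log2 value of the 6 was 2.45 to 5.76 over the H arrays and 2.64 to 4.30 over the L arrays. MYH2 was at the floor in BC2 and BC6. The mean of the endothelial markers was likewise highest in BC5, at 8.83, and lowest in BC2, at 7.69. BC3 came next to BC5, at 8.19, but BC4 was close to it, at 8.14, and not each marker followed the mean. CLDN5, ERG and CDH5 were higher in BC4 than in BC3, and PECAM1 was lower. Of the 8 varying ones, 7 were highest in BC5 and 1 in BC3. The part of muscle or endothelial RNA in the values of IGF1R was not tested.

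**Figure D3:**
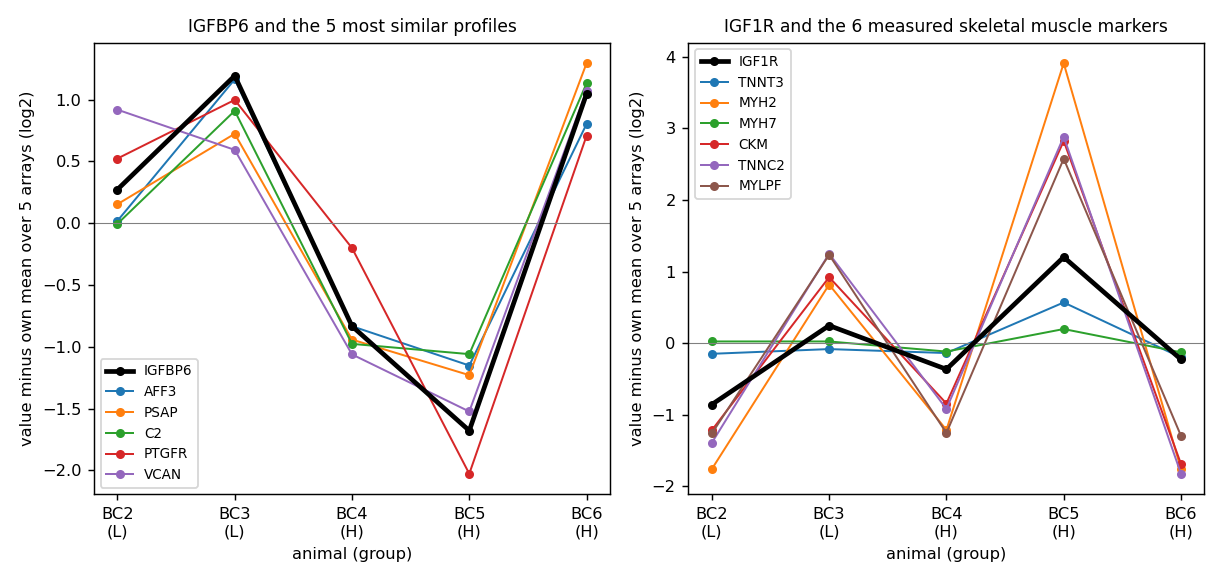
Values minus their own mean over the 5 arrays (log2) by animal, left for the second probe set of IGFBP6 (black) and the 5 genes with the most similar profile, right for IGF1R (black) and the 6 measured skeletal muscle markers. The left profiles all lie above their mean in BC3 and BC6 and below it in BC4 and BC5, and on the right IGF1R and all 6 muscle markers are highest in BC5.

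The binding proteins had ranges of 1.23 for IGFBP2, 2.01 for IGFBP5 and 2.72 for IGFBP6, against a median of 0.68 over all varying probe sets. IGFBP2, which is secreted by differentiating fat cells among others, was at 2.96 in BC2, 3.69 in BC3, 4.19 in BC4, 3.89 in BC5 and 3.24 in BC6. Its values stayed in the lower range of the array, with BC4 and BC5 highest and the H animal BC6 below BC3. Its means differed by 0.45 (standard error 0.43, 95% interval -0.84 to 1.73, adjusted p = 1 from limma), and 0.08 to 0.82 whichever animal was left out.

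IGFBP5, which binds to the extracellular matrix, was at 4.56 in BC2, 5.75 in BC3, 5.11 in BC4, 5.55 in BC5 and 6.57 in BC6. BC6 was highest and BC2 lowest, and BC3 lay above BC4 and BC5. H averaged 5.74 ± 0.75 (SD, n = 3) and L averaged 5.16 ± 0.83 (SD, n = 2), with a difference of 0.59 (standard error 0.67, 95% interval -1.43 to 2.61, adjusted p = 1 from limma). It was -0.00094 without BC2, 0.17 without BC6 and 1.18 without BC3. IGFBP2 and IGFBP5, neighbours in the genome, were both lowest in BC2, but BC6 was the highest animal for IGFBP5 and the next to lowest for IGFBP2.

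IGFBP6 was the member with the largest difference and the largest spread. Its brighter probe set was at 9.52 in BC2, 10.38 in BC3, 8.36 in BC4, 7.65 in BC5 and 10.28 in BC6. BC4 and BC5 were the lowest of the 5 animals, while the H animal BC6 was nearly as high as BC3 and above BC2, and so the groups overlapped. H averaged 8.76 ± 1.36 (SD, n = 3) and L averaged 9.95 ± 0.60 (SD, n = 2), with a difference of -1.18, or 2.27-fold lower in H (standard error 1.0, 95% interval -4.20 to 1.83, adjusted p = 1 from limma). The difference was larger in size than that of 98.8% of varying probe sets, and the range over the animals was larger than that of 98.0%. Within H alone the animals differed 6.17-fold and within L 1.81-fold.

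The second probe set of IGFBP6 was at 9.44 in BC2, 10.36 in BC3, 8.33 in BC4, 7.49 in BC5 and 10.21 in BC6. Both gave the same order of animals and differed by 0.02 to 0.17 on any array. The second gave -1.22 with a standard error of 1.04 (limma, adjusted p = 1). The difference of the brighter probe set ran from -0.63 without BC5 to -1.94 without BC6, and the animals of H did not overlap with those of L for IGFBP6 once BC6 or BC2 was left out.

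**Figure D4:**
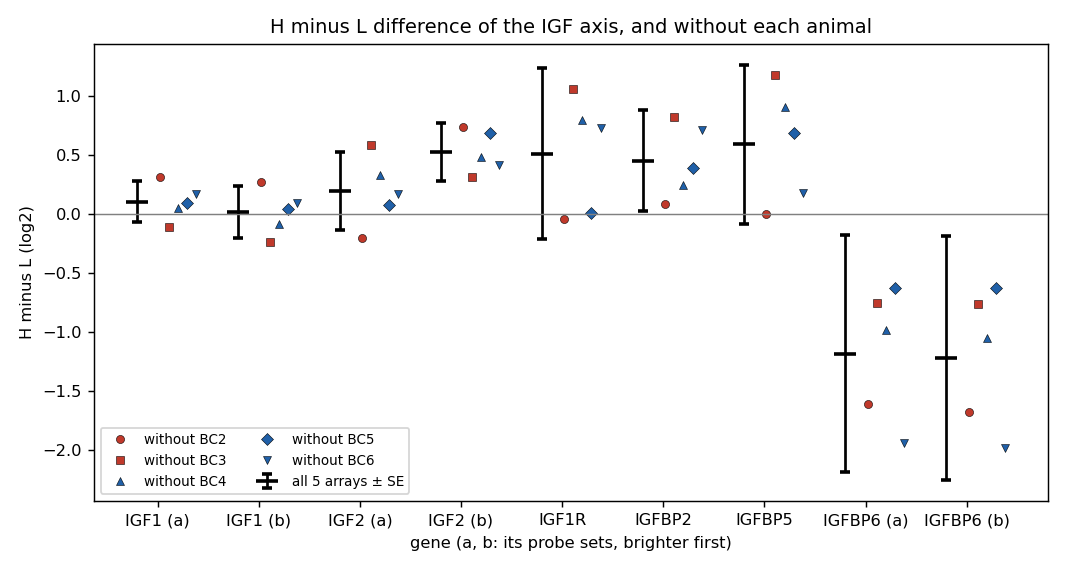
H minus L difference (log2) of the 9 varying probe sets, with a black bar and its standard error for all 5 arrays and a coloured point for each animal left out. Those of IGFBP6 lie below 0 in every case, between -1.99 and -0.63, and those of IGF1R, IGFBP5 and the brighter IGF2 probe set come to 0 or below it without BC2.

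The 5 genes whose profile over the 5 arrays was most like that of the second probe set of IGFBP6, the member with the widest range, by the root mean square difference of values centred on their own mean, were AFF3, PSAP, C2, PTGFR and VCAN. This difference was 0.28 for AFF3, a nuclear factor linked to transcription, 0.32 for PSAP, the precursor of the saposins of the lysosome, and 0.34 for C2, a complement protease. It was 0.38 for PTGFR, the receptor of prostaglandin F, and 0.41 for VCAN, a proteoglycan of the extracellular matrix, against 0.05 between both probe sets of IGFBP6. The search covered 6764 genes, and with 5 arrays a similar profile is a description only. VCAN was at 6.64 in BC2, 6.32 in BC3, 4.66 in BC4, 4.20 in BC5 and 6.80 in BC6, and so was high and low in the same animals as IGFBP6.

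The mean of the macrophage markers was likewise higher in BC3 and BC6 than in BC4 and BC5, but not each marker followed it. CD163, a scavenger receptor, was at 7.18 in BC2, 8.13 in BC3, 6.77 in BC4, 6.28 in BC5 and 8.81 in BC6, and MRC1, the mannose receptor, at 6.31, 7.47, 5.89, 5.98 and 8.43. CD14, a receptor for bacterial lipopolysaccharide, was at 3.57, 3.45, 3.33, 3.64 and 4.47, with BC5 above BC3. Of 9 listed markers 6 were measured, with MARCO at the floor and a mean log2 value of 4.0 to 5.37 over the H arrays and 4.34 to 4.71 over the L arrays. Of 12 listed fibroblast and preadipocyte markers 9 were measured, with COL3A1 at the floor. Their mean was 10.29 in BC2, 10.30 in BC3, 9.97 in BC4, 9.94 in BC5 and 10.81 in BC6. Thus this mean too was higher in BC3 and BC6 than in BC4 and BC5. Again not each marker followed, as PDGFRB was highest in BC5 and DPT was slightly lower in BC3 than in BC5. Of 10 listed adipocyte markers 7 were measured, and their mean was 10.92 in BC5, the animal with the lowest IGFBP6 value, against 11.80 to 12.13 in the others. The markers did not move together. LPL, LEP and ADIPOQ were lowest in BC5, FABP4 and LIPE were highest there, and PPARG and CFD were lowest in BC4. ADIPOQ was highest in BC4, at 12.20, where IGFBP6 was next to lowest. LEP was at 9.33 in BC2, 8.43 in BC3, 8.27 in BC4, 4.41 in BC5 and 10.48 in BC6. The part of these cells in the values of IGFBP6 was not tested.

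Of 9 other binding partners and relatives of the binding proteins, 5 were measured and 2 varied. HTRA1, a serine protease with an IGFBP-like domain, was at 10.49 to 10.81 in BC2 to BC5 and at 11.75 in BC6, and CYR61, a matricellular protein with an IGFBP-like domain, ran from 9.12 in BC2 to 11.42 in BC3. IGFBP1 and IGFALS, the blood carriers made by the liver, stayed within 2.17 to 2.18 on all arrays. None of the 5 passed the threshold.

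Of 18 listed IGFBP proteases and their inhibitors, 14 were measured and 12 varied, 7 with a higher and 5 with a lower mean in H, and none passed the threshold. TIMP2, an inhibitor of metalloproteases, was at 11.66 in BC2, 11.78 in BC3, 11.94 in BC4, 12.05 in BC5 and 12.28 in BC6, with all H animals above both L animals and a difference of 0.37 and a 95% interval of -0.01 to 0.76 (limma, adjusted p = 1). PLAT, the tissue plasminogen activator, was at 7.87 and 8.31 in L and at 8.35, 9.39 and 8.48 in H, 0.65 apart in their means (limma, adjusted p = 1). PAPPA, the main protease of IGFBP4, was at the floor on all arrays. The groups did not overlap for 4 of the 12, which is 3 higher and 1 lower in H, where 20.0% of all varying probe sets did not overlap.

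**Figure D5:**
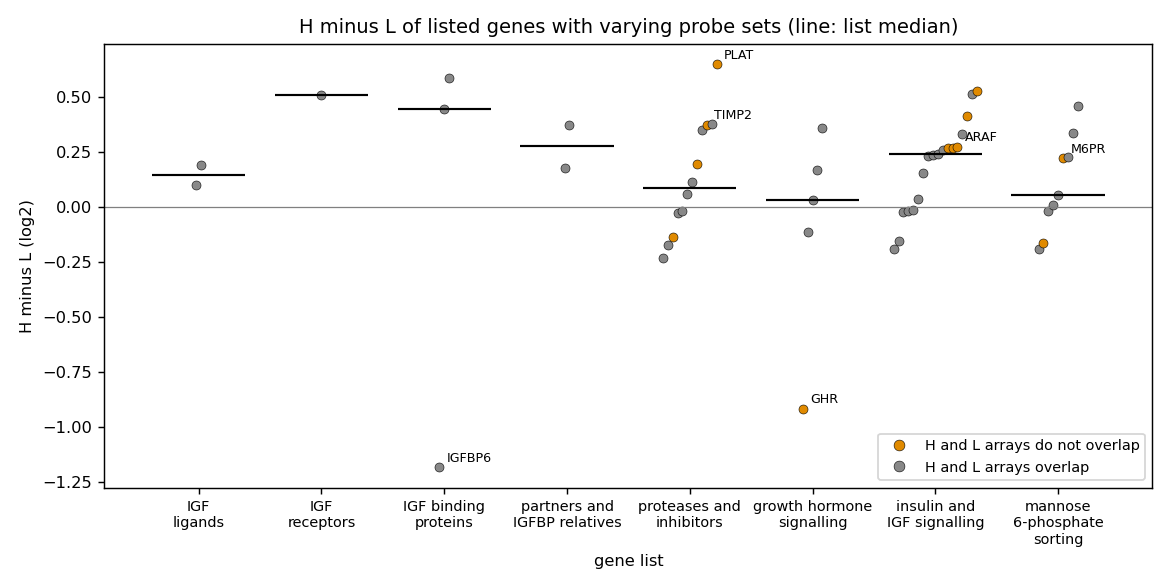
H minus L difference (log2) of the genes of the pathway lists (cell type markers not included) with a varying probe set, 1 point per gene (its brightest probe set), orange where the H and L arrays do not overlap and grey where they do, with a line at the median of each list. GHR and IGFBP6 have the lowest values, -0.92 and -1.18, and the other pathway genes lie between -0.23 and 0.65.

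Upstream of IGF1 in the body is growth hormone. Its receptor GHR was at 10.13 in BC2, 9.71 in BC3, 9.51 in BC4, 8.26 in BC5 and 9.26 in BC6. All 3 H animals lay below both L animals, and the means were -0.92 apart with a standard error of 0.49 (limma, adjusted p = 1), or -0.54 to -1.17 with any animal left out. GHR was lowest in BC5, where the mean of the adipocyte markers was also lowest. LPL, LEP and ADIPOQ were lowest in that animal, but FABP4 and LIPE were highest there, and PPARG and CFD were lowest in BC4. The part of adipocytes in the values of GHR was not tested. JAK2, the kinase bound to the receptor, differed by -0.11 and STAT5B, a transcription factor it activates, by 0.17. Of the 12 listed genes of growth hormone signalling, 10 were measured and 5 varied, 3 with a higher and 2 with a lower mean in H. The groups did not overlap for 1 of the 5, GHR, where 20.0% of all varying probe sets did not overlap. SOCS1 and SOCS3, feedback inhibitors, stayed at 2.39 or below.

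Of 62 listed genes of insulin and IGF receptor signalling, 23 were measured and 18 varied. The mean was higher in H for 13 and lower for 5, with a median difference of 0.24 against 0.02 over all varying probe sets, and the groups did not overlap for 5, all higher in H (20.0% of all varying probe sets did not overlap in either direction). ARAF, a kinase of the MAPK cascade, was at 5.71 in both L animals and at 6.08, 5.94 and 5.94 in H, 0.28 apart in their means with a standard error of 0.06 (limma, adjusted p = 1). PDPK1, which activates AKT, was at 9.81 and 9.82 in L and at 10.11, 10.16 and 9.98 in H, 0.27 apart with a standard error of 0.07 (limma, adjusted p = 1). These 2 of the 23 had an unadjusted p under 0.05, as did 3.18% of all probe sets. INPPL1, a lipid phosphatase, differed by 0.53 and EIF4E, the cap-binding factor of translation, by 0.42. IRS1 was at the floor on all arrays. INSR, the insulin receptor, was at a constant of 2.58 on all arrays in the brightest of its 3 probe sets. These probe sets allow no comparison between the groups, and the others of INSR were not read here. None of the 23 passed the threshold.

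The list around the mannose 6-phosphate sorting that IGF2R serves held 17 genes, of which 9 were measured and varied. M6PR, the smaller of the mannose 6-phosphate receptors, was at 9.78 and 9.62 in L and at 9.91, 9.95 and 9.92 in H, 0.22 apart with a standard error of 0.06 (limma, adjusted p = 1), the only one of the 9 with an unadjusted p under 0.05 (3.18% of all probe sets). The mean was higher in H for 6 and lower for 3, with a median of 0.05, and none passed the threshold. No probe set was annotated to IGF2BP1, IGF2BP2 or IGF2BP3, which bind the IGF2 transcript.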

How the data were processed

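Backfat RNA of 5 pigs was hybridized to Affymetrix porcine arrays, 1 per animal. The authors deposited log2 values, which they had background-adjusted, normalized and summarized per probe set. The methods name GCRMA and the submitters' processing notes RMA, so the method is not settled. Many dim probe sets share 1 value in the deposited table, so small differences among them cannot be seen. The number of arrays limits the precision. The RNA-Seq reads were not analysed here.

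A table of probe annotation gave 1 symbol for 10069 probe sets, several for 198 and none for 13732. After 124 control probe sets were left out, 23999 entered limma (version 3.58.1, R 4.3.3), which compared H with L without covariates and with Benjamini-Hochberg adjustment over all of them. Values within 1e-06 counted as equal, and probe sets are told apart by brightness. A gene is represented by its probe set with the highest mean. On simulated data with added differences, the check covered only the median size of the estimates. How many of the added differences passed the threshold is not given here, so a lack of calls does not show that the groups are equal. Levels of different probe sets are not ordered against each other, since probes bind with different strength.

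The members, the lists of other pathway genes and the markers were chosen with earlier results of these data known. So was the rule for the genes named. It takes all members, up to 4 genes of each list with the smallest p, and the 5 most similar profiles. It also takes the adipocyte markers for the check of the tissue, and LEP, ADIPOQ and PPARG enter only through that check. Not every gene so chosen is printed. CYR61, PLAT, STC1, TIMP1, PAPPA, JAK2, STAT5B, IRS1, INSR, ALB, SERPINA1, MARCO and COL3A1 fall outside it and were chosen after their values were seen, as was the definition of a varying probe set. Alternatives were other scalings, variance models, array weights, a filter on dim probe sets, another threshold, the mean of probe sets and leaving out each animal.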

Additional observations from a re-analysis of the deposited data

How the results depend on the processing

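No paired analysis was run, since the sample labels give no pairing of H with L animals. With all 5 arrays, limma called 0 probe sets under each of the alternatives run. The count over all probe sets was 0 to 286 without 1 animal (160 without BC2, 286 without BC3), and that of the 23 members 0 to 1; with 1 L array left, it is assumed to vary like the H arrays. The genes of the axis whose groups did not overlap numbered 0 to 5 of 6 without 1 animal. They were IGF2, IGF1R, IGFBP2 and IGFBP5 (higher in H) and IGF1 (lower) without BC3, where 54.1% of all varying probe sets did not overlap, 2 without BC2 (41.7%) and 2 without BC6 (36.8%). With the mean of a gene's probe sets above the floor, 1 did not overlap, IGF2 (higher in H). The share of all genes under that averaging is not given here, and most IGF2 probe sets so averaged were constant or nearly so. The genes with a higher mean in H numbered 2 to 5 without 1 animal.

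The fainter IGF1 probe set, whose difference was 0.02, turned to -0.027 with median centring and -0.015 with quantile normalization, and ran from -0.24 to 0.27 without 1 animal. The brighter one ran from -0.11 to 0.32, IGF2 (its brightest probe set) from -0.20 to 0.58, IGF1R from -0.043 to 1.06 and IGFBP5 from -0.00094 to 1.18. The other varying probe sets, of IGFBP2, IGFBP6 and the second of IGF2, kept their direction under every alternative run. Probe sets at the floor or at a constant hold no signal over background, and the comparison of IGF2R rests on such a probe set. Why the differences change without 1 animal or with the scaling was not tested.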

Other observations

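Among the 12 varying IGFBP proteases and inhibitors, 7 were highest in BC6 and 4 in BC3, where 20.0% and 14.7% of all varying probe sets were highest in these animals. This count was made after the values were seen and has no test. STC1, an inhibitor of the protease PAPPA, was at 8.13 in BC2, 10.53 in BC3, 9.44 in BC4, 8.40 in BC5 and 10.33 in BC6. TIMP1, another inhibitor of metalloproteases, was at 7.84, 8.71, 7.30, 7.83 and 9.62 in the same order. Neither separated the groups, with differences of 0.06 (standard error 1.08) and -0.03 (standard error 0.91).

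Of 8 varying fibroblast and preadipocyte markers, 7 were highest in BC6, as were all 4 varying macrophage markers. Of 8 varying endothelial markers, 7 were highest in BC5, the animal with the lowest IGFBP6 and the highest IGF1R value. Over all varying probe sets, 27.6% were highest in BC5 and 20.0% in BC6. These counts have no test.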
